A study of Mus musculus with 16 samples.

Results

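The transcripts described here are those of 10 heat shock genes of the cytosol and the mitochondrion, chosen by symbol from the 57010 genes of the deposited table: Hspa1a, Hspa1b, Hspa8, Hsp90aa1, Hsph1, Dnajb1, Hspb1, Bag3, Hspd1 and Hspe1. Each symbol was listed once, and all 10 passed the filter on low values used for testing, which asked that the 16 libraries average 1 TPM or more. TPM express the share of a library's transcripts that come from each gene, corrected for transcript length, so that every library adds up to the same sum. Liver mRNA was sequenced from 16 male wild-type C57BL/6J mice, with 4 mice in each of 4 groups. The study's methods give their age as 8 to 12 weeks, and its figure legend has the diet start at 8 weeks. Mice that ate the diet described below for 3 months were therefore older than this when the liver was taken. The Cd mice received CdCl2 at 1.25 mg/kg by intraperitoneal injection every day for 7 days. The Se mice ate a diet with selenomethionine (SeMet) at 2 ppm for 3 months, and the Cd+Se mice received the diet for 3 months and the CdCl2 injections over its last 7 days. The control mice carried neither treatment, and the labels do not say whether they or the Se mice were injected with vehicle. Nor do they give the diet of the control and Cd mice. Any effect of injection or base diet can therefore not be told apart from that of CdCl2 or SeMet. The control mice are numbered 27 to 30, the Cd mice 1, 2, 5 and 6, the Cd+Se mice 13 to 16 and the Se mice 39, 40, 41 and 44. The labels name no batch, and the sequencing depth is unknown because TPM do not keep it.

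Heat shock proteins are chaperones, which bind unfolded proteins and help them to fold or to be degraded. HSF1, the main heat shock transcription factor, binds repeats of GAA and its complement TTC in the promoters of many of these genes when unfolded proteins accumulate, and metals such as Cd are textbook inducers of this response in cultured cells. In the cytosol, HSP70 proteins work with J-domain partners and exchange factors and pass clients to HSP90, while in the mitochondrial matrix HSP60 (Hspd1) forms a barrel that is closed by a lid of HSP10 (Hspe1). Hspa8 encodes the constitutive HSP70 of the cytosol, and Hspa1a and Hspa1b encode the inducible ones.

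Of the 10 genes, 8 had an entry among the 32851 RefSeq promoters of the mouse build GRCm38.p6, each holding 250 bases before the start site and 50 from it onwards. Hspa8 and Hsp90aa1 had no entry and were not searched. The windows below show the HSF-type repeats, with the repeats in capitals. They are shown because 7 of the 8 genes had such repeats, and because Hspd1 and Hspe1, whose levels are compared below, share the first of them. Positions count from the start site as 0.
Hspe1 (shared with Hspd1), chr1:55088053-55088082, plus strand: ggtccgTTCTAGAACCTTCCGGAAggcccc
Hsph1, chr5:149636287-149636308, minus strand: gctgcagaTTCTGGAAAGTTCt
Hspa1a, chr17:34972242-34972271, minus strand: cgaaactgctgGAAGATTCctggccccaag
Hspa1b, chr17:34959324-34959353, minus strand: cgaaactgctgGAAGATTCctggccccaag
Hspb1, chr5:135887791-135887820, plus strand: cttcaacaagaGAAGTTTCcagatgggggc
Hspd1 and Hspe1 lie head to head on chromosome 1, Hspd1 at 55077835 to 55088243 on the minus strand and Hspe1 at 55088132 to 55091307 on the plus strand (GRCm38, GENCODE M21), so that the 2 annotated genes overlap by 112 bases. The 18 bases in capitals lie at -89 to -72 of the Hspe1 start at 55088148. RefSeq lists Hspd1 starts at 55087932 and 55088243, and the capitals lie between the first of these and the Hspe1 start, which are 216 bases apart. A run of 3 repeats, GAANNTTCNNGAA on either strand, was found in the promoters of 3 of the 8 genes (Hspd1, Hspe1 and Hsph1) and in 0.603% of all promoters searched. The run of Hsph1 lies after its start at 149636336, at 36 to 48. The shorter GAANNTTC, which every longer match also contains, was found in 7 of the 8 (not in Dnajb1) and in 7.86% of all promoters. These matches describe the letters of the promoters and are not measured binding sites.

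The levels of the 10 transcripts covered a wide range. Hspa8 was the highest, with a mean of 693.0 TPM over the 16 mice, above 98.6% of the genes tested. Hspd1 followed at 207.8 TPM and Hspe1 at 187.0 TPM, and the ranges of these 2 overlapped. Hsp90aa1 was at 91.92 TPM, Hsph1 at 31.39, Hspb1 at 20.02, Bag3 at 12.86, Hspa1b at 11.77 and Dnajb1 at 8.782 TPM. From Hsph1 to Dnajb1 each gene's range over the mice overlapped that of its neighbour in this order. Hspa1a was the lowest at 2.073 TPM, and its highest mouse, at 4.03 TPM, lay below the lowest mouse of each of the other 9. TPM are corrected for transcript length, so that levels can be set side by side between genes.

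**Figure D1:**
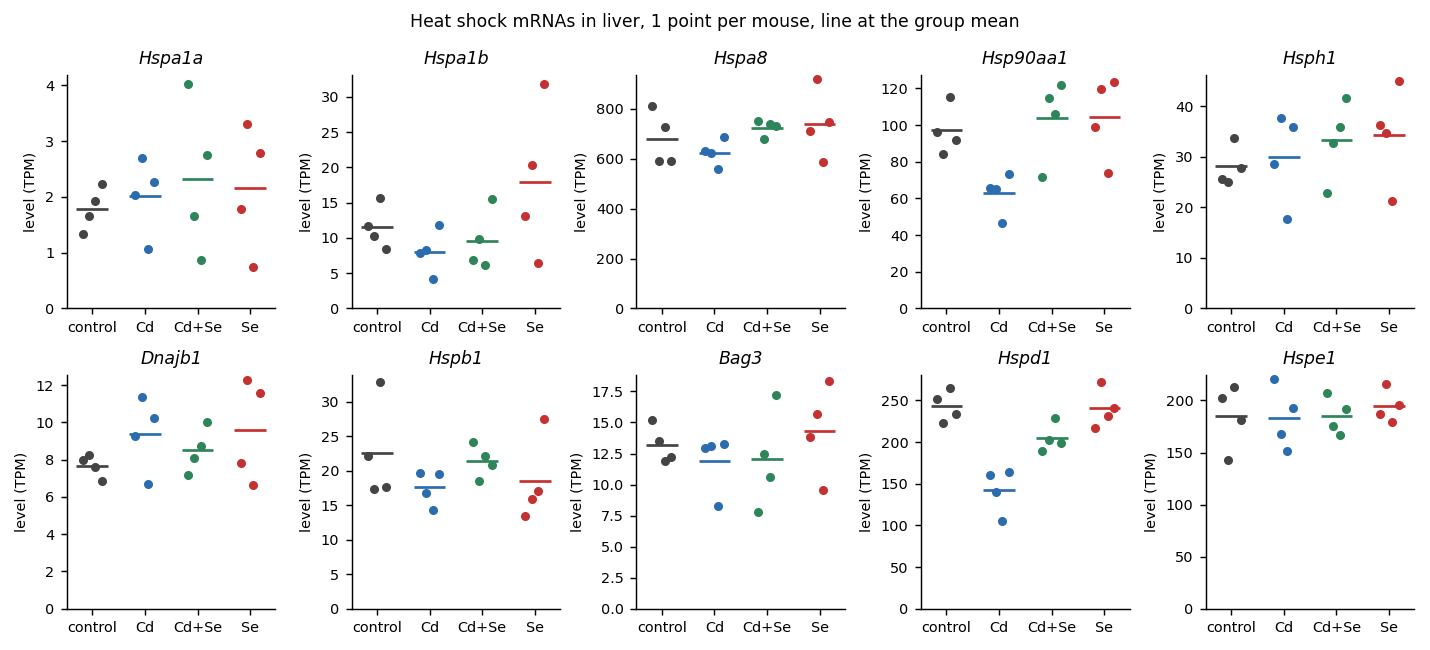
Level in TPM (vertical axes, linear from 0) of each of the 10 heat shock transcripts in the liver of each mouse by group, with 1 point per mouse and a line at the mean of the 4 mice. Hspd1 and Hsp90aa1 are the transcripts in which each of the 4 Cd mice lies below each of the 4 control mice.

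The first comparison addresses the effect of Cd alone. In livers of Cd mice, 2 of the 10 heat shock transcripts fell against control, Hspd1 and Hsp90aa1, and 0 rose. For comparison, 30.8% of the 11766 genes tested passed the same threshold (limma on log2(TPM + 1), Benjamini-Hochberg adjusted p under 0.05) and 24.9% passed it downwards, so that the share of the heat shock genes was near that of all genes. The 2 transcripts were also those whose Cd mice all lay below the control mice, which was true of 27.8% of the genes tested. The median log2 fold change was -0.14 over the 10 and -0.17 over all genes tested. The injected mice carried the Cd response of the metallothioneins, whose products bind the metal: Mt1 rose by a log2 fold change of 5.30 (limma adjusted p = 1.86e-05) and Mt2 by 5.88 (limma adjusted p = 5.74e-05).

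Hspd1, which encodes HSP60, the barrel of the mitochondrial chaperonin, was at 222.74, 233.10, 251.98 and 265.30 TPM in the control mice and at 105.69, 139.96, 160.47 and 164.40 TPM in the Cd mice. The highest Cd mouse thus lay well below the lowest control mouse. The means were 243.3 ± 19.03 TPM (SD, n = 4) and 142.6 ± 26.86 TPM (SD, n = 4), a ratio of 0.586. The log2 fold change was -0.78 (standard error 0.132, 95% interval -1.06 to -0.50, limma adjusted p = 0.000748). It was -0.65 without Cd mouse 5, the library with the lowest median level of the Cd group (limma adjusted p = 0.00124), and -0.56 after each library was centred on its median (limma adjusted p = 0.000527).

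Hspe1, which encodes the lid of the same chaperonin, did not follow its partner. It was at 142.46, 181.40, 202.69 and 213.25 TPM in the control mice and at 151.38, 168.11, 192.34 and 220.73 TPM in the Cd mice, and the ranges overlapped almost fully. The log2 fold change was -0.01, with a 95% interval of -0.31 to 0.28 (limma adjusted p = 0.956). A ratio of 2 transcripts of the same library does not depend on how the library is scaled. Hspd1 divided by Hspe1 averaged 1.33 ± 0.154 (SD, n = 4) for the control group and 0.778 ± 0.0771 (SD, n = 4) for the Cd group. With SeMet it averaged 1.12 ± 0.192 (SD, n = 4) when Cd was given and 1.24 ± 0.0567 (SD, n = 4) when it was not. For each Cd mouse the ratio, at 0.698 to 0.855, was below that of each of the other 12 mice, of which the lowest was at 0.915. The mean log2 ratio was lower in Cd than in control by 0.78 (log2 difference -0.78, exact two-sided permutation p = 0.0286, the smallest that 4 against 4 mice allow). Over the 20 tests made on 4 ratios chosen after their values were seen, the adjusted p was 0.191. With a correction of each library for transcript length and GC content the difference was -0.54. The transcripts differ in length (2423 nt for Hspd1 and 774 nt for Hspe1), and reads from the 112 overlapping bases cannot be told apart without strand, which the sources used here do not state for the counting.

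**Figure D2:**
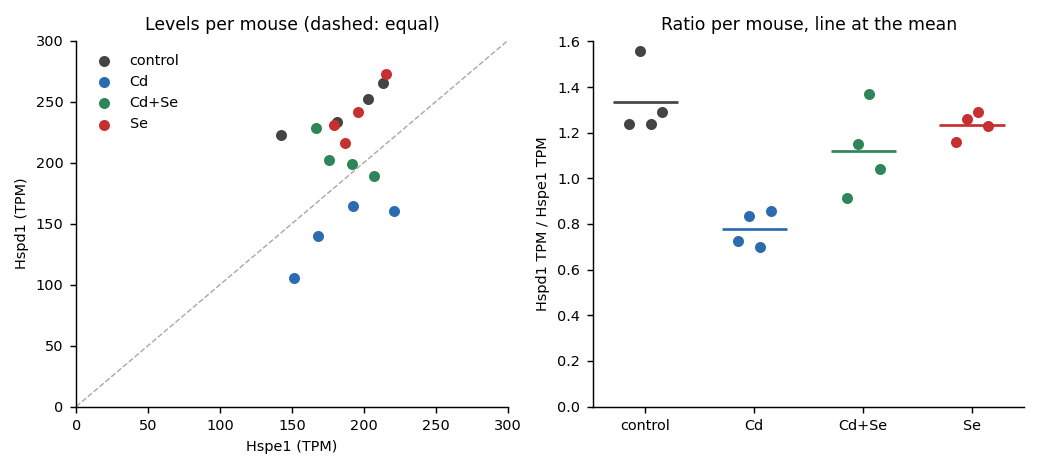
Left, Hspd1 against Hspe1 in TPM, 1 point per mouse coloured by group, with a dashed line where the 2 are equal. Right, the ratio of Hspd1 to Hspe1 in each mouse of the 4 groups, with a line at the mean. The 4 Cd mice lie below the line of equality and have ratios of 0.698 to 0.855, while the control mice have 1.24 to 1.56.

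Hsp90aa1 encodes the inducible form of cytosolic HSP90, which completes the folding of kinases and steroid receptors. It was at 84.32, 92.06, 96.46 and 115.57 TPM in control mice and at 46.65, 65.27, 65.75 and 73.31 TPM in Cd mice, with no overlap. The log2 fold change was -0.63 (standard error 0.193, 95% interval -1.04 to -0.22, limma adjusted p = 0.0217). This call was close to the threshold: it was lost without control mouse 29 (limma adjusted p = 0.0723), without Cd mouse 5 (log2 fold change -0.50, limma adjusted p = 0.0764) and with median centring (-0.41, limma adjusted p = 0.0592). Over its 26 alternatives the adjusted p ran from 0.0114 to 0.0764. Its constitutive partner Hsp90ab1 was at 364 ± 24.5 TPM in control and 280 ± 51.6 TPM in Cd mice (SD, n = 4), with a log2 fold change of -0.40 (limma adjusted p = 0.0548). The ratio of Hsp90aa1 to Hsp90ab1 was also lower in each Cd mouse (0.213 to 0.238) than in each control mouse (0.249 to 0.303). The log2 difference was -0.24 (exact two-sided permutation p = 0.0286, adjusted p = 0.191), and the p-values equalled those of Hspd1 to Hspe1. In Cd+Se mice it ran from 0.184 to 0.309 and overlapped the Cd range.

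The HSP70 transcripts showed no change past the threshold in Cd mice. Hspa8 was at 680.9 ± 109.9 TPM (SD, n = 4) in control and 624.6 ± 53.66 TPM in Cd mice, a log2 fold change of -0.11 (95% interval -0.41 to 0.18, limma adjusted p = 0.557), and this value took the opposite sign, 0.11, with median centring. Hspa1b was at 8.39, 10.34, 11.67 and 15.67 TPM in control and at 4.19, 7.82, 8.35 and 11.90 TPM in Cd mice. Of these, 3 of the 4 Cd mice lay below the lowest control mouse and Cd mouse 6 lay among the controls, and the log2 fold change of -0.51 had an interval of -1.33 to 0.31 (limma adjusted p = 0.339). Hspa1a was at 1.788 ± 0.3887 TPM in control and 2.018 ± 0.6887 TPM in Cd mice (SD, n = 4). Hspa1a (chromosome 17, 34969190 to 34972156) and Hspa1b (chromosome 17, 34956436 to 34959238) are near copies, with transcripts 99.2% identical over 2201 aligned bases and 250 upstream bases that differ at 3 positions. How the counting split reads between them is not given in the sources used here, so that their separate levels are uncertain. With both summed, the log2 fold change was -0.42 (limma adjusted p = 0.427). The ratio of Hspa1b to Hspa1a overlapped between Cd and control mice (exact two-sided permutation p = 0.114, adjusted p = 0.38).

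The partners of HSP70 likewise showed no change past the threshold against control. Dnajb1, the J-domain protein that delivers unfolded clients to HSP70, was at 6.85, 7.62, 7.98 and 8.23 TPM in control mice and at 6.70, 9.25, 10.23 and 11.34 TPM in Cd mice. Cd mice 1, 2 and 6 lay above each control mouse and Cd mouse 5 lay below them, with a log2 fold change of 0.24 (95% interval -0.14 to 0.62, limma adjusted p = 0.322). This transcript passed the threshold as higher in Cd when the libraries were centred on their medians (0.46, limma adjusted p = 0.0137), quantile normalized (0.45, limma adjusted p = 0.015) or corrected for length and GC (0.44, limma adjusted p = 0.0215). Those corrections move the median of all genes tested from -0.17 as deposited to 0.05, -0.01 and -0.02. Hsph1, an HSP110 protein that exchanges the nucleotide of HSP70, was at 25.08 to 33.78 TPM in control and 17.62 to 37.70 TPM in Cd mice (the log2 fold change was 0.04, limma adjusted p = 0.907). Bag3, which links HSP70 to selective autophagy, was at 11.91 to 15.22 TPM in control and 8.29 to 13.26 TPM in Cd mice, which gave a log2 fold change of -0.16 (limma adjusted p = 0.611). Hspb1, the small heat shock protein HSP27 or HSP25, was at 17.41 to 32.96 TPM in control and 14.26 to 19.75 TPM in Cd mice, which gave -0.30 (limma adjusted p = 0.287).

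**Figure D3:**
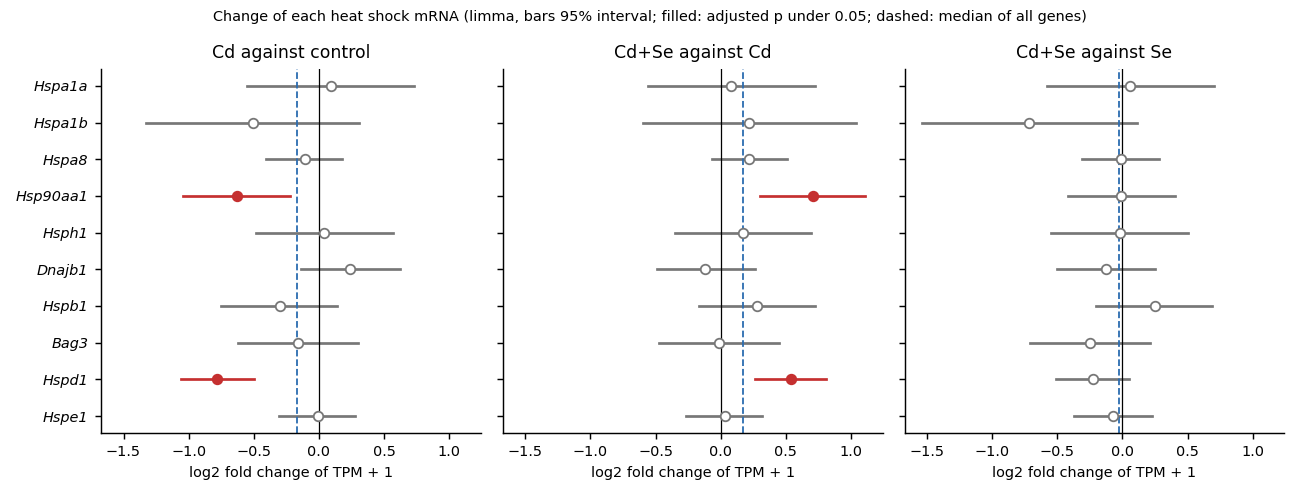
Log2 fold change of TPM + 1 (horizontal axes) of each of the 10 transcripts in Cd against control, Cd+Se against Cd and Cd+Se against Se, with bars for the 95% interval from limma, filled points at an adjusted p under 0.05 and a dashed line at the median of the 11766 genes tested. Hspd1 and Hsp90aa1 are filled on the lower side in Cd against control (-0.78 and -0.63) and on the higher side in Cd+Se against Cd (0.54 and 0.71).

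The second comparison set Cd+Se mice against Cd mice, which asks what the SeMet diet changed under Cd. It uses the same Cd mice as the first, so that the 2 are not independent. Hspd1 and Hsp90aa1 were higher in Cd+Se mice, 2 of 10 transcripts, and 0 were lower. Of all genes tested, 15.9% passed and 13.6% passed upwards. The median log2 fold change was 0.19 over the 10 transcripts and 0.17 over all genes. Hspd1 was at 189.26, 198.94, 202.44 and 228.40 TPM in Cd+Se mice, each above the highest Cd mouse at 164.40 TPM. Its log2 fold change was 0.54 (95% interval 0.26 to 0.81, limma adjusted p = 0.0168), and it was the 1 member of 10 whose Cd+Se mice all lay above the Cd mice, as 16.1% of all genes did. Without Cd mouse 5 it was 0.40 (limma adjusted p = 0.0403). Hsp90aa1 was at 71.75, 106.14, 114.58 and 122.10 TPM in Cd+Se mice, and the lowest, mouse 13, lay within the Cd range. Its log2 fold change was 0.71 (95% interval 0.30 to 1.11, limma adjusted p = 0.0245), and the call was lost without Cd mouse 5 (0.57, limma adjusted p = 0.0852) and without Cd+Se mouse 14, 15 or 16 (limma adjusted p = 0.072, 0.0512 and 0.0638). A model of only these 2 groups called neither (limma adjusted p = 0.0824 for Hspd1 and 0.0773 for Hsp90aa1). Each Cd+Se mouse had a ratio of Hspd1 to Hspe1 above that of each Cd mouse (log2 difference 0.51, exact two-sided permutation p = 0.0286, adjusted p = 0.191).

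With SeMet in both groups, Cd changed none of the 10 transcripts at the threshold. In Cd+Se against Se, 0 of 10 passed in limma (0 at an unadjusted p under 0.05, lowest adjusted p 0.536), where 0.714% of all genes did. The log2 fold change of Hspd1 was -0.23 (95% interval -0.51 to 0.05) and that of Hsp90aa1 -0.01 (95% interval -0.42 to 0.40). In Cd+Se against control 0 passed (0 at an unadjusted p under 0.05), and 0.484% of all genes did. In that comparison Hspd1 was at -0.25 (95% interval -0.53 to 0.03) and Hsp90aa1 at 0.07 (95% interval -0.33 to 0.48). In Se against control 0 passed (0 at an unadjusted p under 0.05), as did 0.0% of all genes, with Hspd1 at -0.02 (95% interval -0.30 to 0.26) and Hsp90aa1 at 0.08 (95% interval -0.33 to 0.49). Of the 11766 genes tested, 1286, 1286 and 454 had an unadjusted p under 0.05 in these comparisons, in the order given.

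The difference between the effect of Cd with and without SeMet was tested itself as an interaction. None of the 10 passed in limma, where 1.04% of all genes did. An unadjusted p under 0.05 was found for 2 of the 10 and for 2505 of the 11766 genes tested, so that the shares were near each other. The 2 members were Hspd1 (interaction 0.56 on the log2 scale, 95% interval 0.16 to 0.95, limma adjusted p = 0.118) and Hsp90aa1 (0.62, 95% interval 0.05 to 1.20, limma adjusted p = 0.203). The fall of these transcripts in Cd mice was therefore not shown to differ between the diets, although quantile normalization gave an adjusted p of 0.0392 for Hspd1 in limma, with an interaction of 0.52.

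Within groups, the 10 transcripts deviated together in 4 of the 16 mice and in mixed directions in the other 12. Hspa1b was at 6.45, 13.05, 20.29 and 31.80 TPM in the Se mice, lowest in mouse 41 and highest in mouse 44. Its coefficient of variation there was 60.7%, against 8.15% for Hspe1. In Se mouse 44 all 10 transcripts were above their group mean and in Se mouse 41 all 10 were below it, where 55.1% and 31.6% of all genes tested were above theirs. In Cd mouse 5 all 10 were below the group mean, but only 11.1% of all genes tested were above it in that library, so that most genes were low there. In Cd mouse 6 all 10 were above, against 42.7% of all genes. As a description over the 16 deviations from the group means, in which library effects are shared, Pearson's r over the 28 pairs of cytosolic members ran from 0.16 (Hspb1 and Bag3) to 0.91 (Hsp90aa1 and Hsph1), with a median of 0.55. Over the 16 pairs of a cytosolic and a mitochondrial member it ran from 0.19 to 0.67, with a median of 0.48, and it was 0.62 for Hspd1 and Hspe1.

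**Figure D4:**
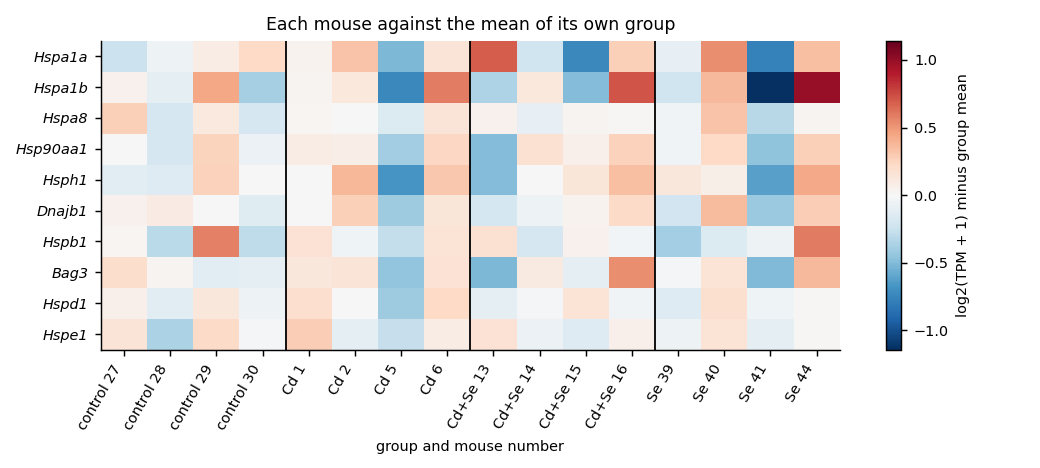
Deviation of log2(TPM + 1) from the mean of the mouse's own group, in colour, for the 10 transcripts (vertical axis) in each of the 16 mice (horizontal axis, group and mouse number). Columns of a single colour mark mice in which the transcripts deviated together: Cd mouse 5 and Se mouse 41 below their group means, Cd mouse 6 and Se mouse 44 above them.

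The transcripts whose pattern over the 16 libraries was most like the mean of the 8 cytosolic members were Smchd1 and Gars (Pearson's r 0.90 each), followed by Sars, Ahsa1 and Raly (0.88 each). Gars and Sars encode aminoacyl-tRNA synthetases, and Ahsa1 encodes a cofactor that stimulates the ATPase of HSP90. For the mean of Hspd1 and Hspe1 the most similar were Gm10175 (0.90) and Cops7a, Atpsckmt, Txndc12 and F7 (0.89 each). These are descriptions of shared pattern over libraries that also share group and scaling.

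The other genes of the chaperone system were followed in lists of 86 genes, of which 77 were tested. In Cd against control 25 were lower (32.5%, against 24.9% of all genes tested) and 4 higher (5.19%, against 5.82%), with a median log2 fold change of -0.23 against -0.17 for all genes. This split depended on the scaling, for the lists as for all genes. With median centring 14 were lower (18.2%, against 15.3%) and 18 higher (23.4%, against 19.2%). With quantile normalization 20 of the 77 were lower and 15 higher, where 19.3% and 14.5% of all genes were. With the length and GC correction 17 of the 77 were lower and 10 higher, where 17.5% and 13.6% of all genes were. In Cd+Se against Cd 14 were higher (18.2%, against 13.6% of all genes) and 2 lower (2.60%, against 2.35%) as deposited. With median centring 10 were higher and 11 lower, where 7.96% and 10.8% of all genes were. With no filter 84 listed genes were tested. Of these 5 were higher (5.95%, against 3.32% of all genes) and 1 lower (1.19%, against 0.723%). With only the groups compared in the model 0 of the 77 passed in limma, where 0.399% of all genes passed as higher and 0.161% as lower. In the other 4 comparisons 0 of the 77 passed in limma, with 2 at an unadjusted p under 0.05 in Cd+Se against Se, 0 in Se against control, 4 in Cd+Se against control and 19 in the interaction. Of the 11766 genes tested, 1286, 454, 1286 and 2505 were under that unadjusted threshold, in the same order.

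None of the 4 tested genes of the HSF list passed in limma in Cd against control as deposited. At an unadjusted p under 0.05 there was 1 of the 4, and 4997 of the 11766 genes tested. With median centring or quantile normalization 3 of the 4 passed as higher, and 1 did with the length and GC correction. Of all genes tested, 19.2%, 14.5% and 13.6% passed as higher in these settings, in the same order. Hsf1 itself was at 6.50 ± 1.42 TPM in control and 6.85 ± 1.27 TPM in Cd mice (SD, n = 4), a log2 fold change of 0.07 (limma adjusted p = 0.759). It passed as higher in Cd with median centring (0.29, limma adjusted p = 0.0431) and quantile normalization (0.29, limma adjusted p = 0.0472). In Cd+Se against Cd it was at -0.22 as deposited (limma adjusted p = 0.324). There it passed as lower with median centring (-0.41, limma adjusted p = 0.0143) and quantile normalization (-0.42, limma adjusted p = 0.0158). It also did so with the length and GC correction (-0.40, limma adjusted p = 0.0207). Of 15 J-domain genes 6 fell in Cd mice, where 24.9% of all genes tested did. Among the 6 were Dnajb6, a strong suppressor of aggregation (-0.64, limma adjusted p = 0.00106), and Dnaja2 (-0.52, limma adjusted p = 0.006). Under median centring 2 of the 15 were lower and 2 higher, where 15.3% and 19.2% of all genes were. Dnajb6 rose in Cd+Se against Cd by 0.62 (limma adjusted p = 0.00605), and this call was lost with only the groups compared (limma adjusted p = 0.061).

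Of 14 genes of HSP90 and its co-chaperones, 5 fell and 1 rose in Cd mice as deposited, where 24.9% of all genes tested fell and 5.82% rose. With median centring 3 were lower and 2 higher (15.3% and 19.2% of all genes). With no filter 2 were lower and 0 higher (8.66% and 2.2% of all genes). Cdc37, which brings kinases to HSP90, fell by 0.78 on the log2 scale (limma adjusted p = 0.00655) and rose by 0.78 from Cd to Cd+Se mice (limma adjusted p = 0.0166). This second call was lost when Cd+Se mouse 14 was left out (limma adjusted p = 0.0543) and with only the groups compared (limma adjusted p = 0.0824). Fkbp5, a glucocorticoid-induced HSP90 partner, was at 26.2 ± 5.3 TPM in control, 10.1 ± 1.58 TPM in Cd and 37.5 ± 33.2 TPM in Cd+Se mice (SD, n = 4). Its log2 fold change in Cd mice was -1.28 against control (limma adjusted p = 0.0221), and that call was lost in 5 of 26 alternatives. These left out Cd mouse 5 (limma adjusted p = 0.0662), control mouse 27 (0.0598) or control mouse 29 (0.0529). The others used no filter (limma adjusted p = 0.068) or the length and GC correction (limma adjusted p = 0.0555). Among the 7 exchange factors and CHIP, 3 fell and 1 rose, and with median centring 1 was lower and 1 higher, against the shares of all genes just given. Bag5 fell by 0.80 on the log2 scale (limma adjusted p = 0.00185) and Stub1, the ubiquitin ligase CHIP that marks chaperone clients for degradation, rose by 0.48 (limma adjusted p = 0.00998).

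Among 16 other mitochondrial chaperones and proteases, 7 fell and 1 rose in Cd mice as deposited, where 24.9% of all genes tested fell and 5.82% rose. With median centring 6 were lower and 4 higher (15.3% and 19.2% of all genes). With quantile normalization 7 were lower and 4 higher (19.3% and 14.5% of all genes). Hspa9, the HSP70 of the matrix that works before HSP60 on imported proteins, was at 218 ± 10.2 TPM in control and 148 ± 34.4 TPM in Cd mice (SD, n = 4), a log2 fold change of -0.59 (limma adjusted p = 0.0115). The ratio of Hspd1 to Hspa9 did not pass the test (1.12 ± 0.0697 in control and 0.978 ± 0.0829 in Cd mice, SD, n = 4, exact two-sided permutation p = 0.0571, adjusted p = 0.228). The protease genes Lonp1 (-0.61, limma adjusted p = 0.0027) and Yme1l1 (-0.57, limma adjusted p = 0.00202) also fell. Of the 8 genes of the cytosolic chaperonin TRiC, 2 fell, Cct5 (-0.56, limma adjusted p = 0.00937) and Cct6a (-0.38, limma adjusted p = 0.0179). The call of Cct6a was lost with median centring (-0.16, limma adjusted p = 0.0817) and without control mouse 29 (limma adjusted p = 0.0653). Of the 6 prefoldin genes, whose products hand actin and tubulin to TRiC, Pfdn5 rose (0.66, limma adjusted p = 0.00402). With median centring or quantile normalization 4 of the 6 passed as higher, where 19.2% and 14.5% of all genes did. With the length and GC correction 2 of the 6 passed as higher and 1 as lower, where 13.6% and 17.5% of all genes did. Of the 4 other HSP70 genes tested Hspa14 fell (-0.77, limma adjusted p = 0.00581), and of the 3 other small heat shock genes Hspb8 fell (-0.58, limma adjusted p = 0.00613), a call lost with median centring (-0.36, limma adjusted p = 0.0886).

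**Figure D5:**
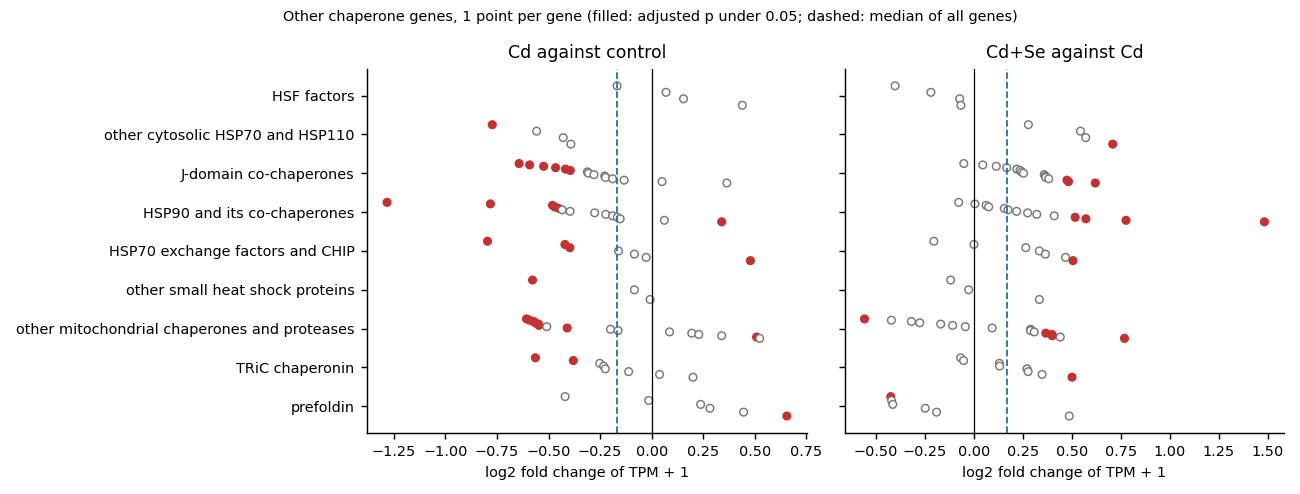
Log2 fold change of TPM + 1 (horizontal axes) of the 77 tested genes of the other chaperone lists, 1 point per gene, in Cd against control and in Cd+Se against Cd, with filled points at a limma adjusted p under 0.05 and a dashed line at the median of all genes tested. As deposited, 25 genes are filled on the lower side in Cd against control, and with median centring 14 are.

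Because whole liver was sequenced, fewer cells of a type and less RNA per cell cannot be told apart. Markers of other cells moved with Cd. All 6 Kupffer cell markers passed as lower in Cd against control, and their summed level ran from 105 to 129 TPM (control), 35.0 to 54.4 TPM (Cd), 32.1 to 65.6 TPM (Cd+Se) and 57.9 to 142 TPM (Se). Of the 6 neutrophil markers 4 were tested and 3 passed as higher in Cd, and their summed level ran from 6.67 to 16.8 TPM (control), 32.8 to 41.7 TPM (Cd), 46.5 to 77.2 TPM (Cd+Se) and 5.92 to 9.81 TPM (Se). The 6 hepatocyte markers summed to 59200 to 81300 TPM in control and 38700 to 64900 TPM in Cd mice, and 1 of them passed as lower. Most of this sum was Alb, with means of 52100 TPM in control and 33200 TPM in Cd mice. The means of Cps1, Cyp2e1 and Ass1 were also lower in Cd mice, and those of Apoa1 and Ttr were higher. In Cd+Se mice the 6 markers summed to 50000 to 70200 TPM, and 1 passed as higher than in Cd mice. Of the 5 sinusoidal endothelium markers 2 passed as lower in Cd against control and 1 as higher in Cd+Se against Cd, and of the 3 tested monocyte markers 2 passed as higher in Cd against control and 1 as higher in Cd+Se against Cd. The part of cell composition in the heat shock levels was not tested.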

How the data were processed

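The authors deposited TPM values for 57010 genes in 16 liver libraries, 1 column per mouse, although the titles name a pair of runs for each. The submitters' processing notes name fastp, HISAT2 and StringTie without versions, and the build GRCh38, a human build, while the identifiers are mouse Ensembl genes. How this bears on the values could not be checked. RNA was poly(A)-selected, and depth is unknown, so precision rests on 4 mice per group, taken as replicates from the labels.

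Here, log2(TPM + 1) was compared with limma 3.58.1 in R 4.3.3 over 11766 genes, those averaging 1 TPM or more, in a single model of 4 groups with an intensity trend. P-values were adjusted by Benjamini-Hochberg over all genes and called under 0.05. Such fold changes understate the change of low genes. Ratios were compared by exact two-sided permutation tests. In simulated data for Cd against control over 11766 genes, limma recovered 84 of 100 genes changed by a log2 of 1 and 98 of 100 changed by 2, with 1 false call. The simulated noise was independent between genes, 200 genes were changed in both directions and no library was shifted as a whole. The real libraries differ in these points, so that the number of false calls in them cannot be read from the simulation.

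The members and gene lists were chosen with earlier results of these data known. Named were all members, Hsf1, the metallothioneins, the 5 genes most alike in pattern and some of the up to 4 called genes of largest change per list. Dnaja1, Dnajb12, Unc45a, Hspa4l, Bag4, Hspbp1, Clpx and Pfdn6 met that rule and are not described above. Of 26 alternatives for Cd against control, the call was lost in 6 for Dnaja1, 7 for Dnajb12, 15 for Bag4 and 11 for Hspbp1. Alternatives were a pseudocount of 0.1, no filter, a mean of at least 5 TPM, quantile normalization, median centring, only the groups compared, no trend, a log2 fold change of at least 1, each mouse left out, Hspa1a and Hspa1b summed, protein-coding genes only and, chosen after seeing the data, a loess correction for length and GC (span 0.5, 98.3% of the genes tested). Sequences are from RefSeq (GRCm38.p6), positions and lengths from GENCODE M21, and near copies were sought with BLAST 2.17.0 (at least 95% identity over 200 bases). Apart from Hspa1a and Hspa1b, the near copies of each gene summed to at most 0.305 TPM.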

Additional observations from a re-analysis of the deposited data

Results flagged for a closer look

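Bag3 in the Cd group had 1 mouse far from the others. Cd mouse 5 was at 8.29 TPM and the other 3 at 12.91 to 13.26 TPM, so that the gap to the nearest mouse was 0.93 of the group's range, above Dixon's critical value for 4 samples. Of 40 groups of 4 mice looked at (10 genes in 4 groups) 1 passed, where chance gives about 2. In the same library 11.1% of all genes tested were above their group mean.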

How the results depend on the processing

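The fall of Hspd1 in Cd against control passed in each of its 26 alternative fits (log2 fold change -0.86 to -0.56, limma adjusted p 8.16e-05 to 0.00508), and 0 values called as deposited changed sign. These fits do not include the threshold of a log2 fold change of at least 1, which Hspd1 at -0.78 did not meet. The number of members called in Cd against control, 2 as deposited, was 3 with quantile normalization (Dnajb1 in addition), 1 with no filter on low values (more genes tested), 0 when a log2 fold change of at least 1 was also required, and 1 to 2 without each mouse in turn. In Cd+Se against Cd, also 2, it was 1 with no filter, 0 with only the groups compared, 0 with the fold threshold and 1 to 2 without each mouse. In the interaction it was 1 with quantile normalization. Calls over all genes tested also moved with the setting. In Cd against control they were 3619 of 11766 as deposited, 3986 with quantile normalization and 3036 of 27943 with no filter. In Cd+Se against Cd they were 1876 of 11766 as deposited and 1131 of 27943 with no filter. With only the groups compared they were 66 of 11766. In the interaction they were 122 of 11766 as deposited and 524 with quantile normalization. With median centring or the length and GC correction the 2 members called in Cd against control were Hspd1 and Dnajb1. Of all genes, 4064 of 11766 and 3594 of 11561 were called in these settings. Leaving out each mouse in turn gave 2580 to 3888 calls over all genes in Cd against control. In Cd+Se against Cd it gave 730 to 2153. The share of all genes that met the fold threshold is not given here. The causes were not tested.

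Signs changed only for values that were not called. With median centring, the length and GC correction or quantile normalization, the value for Cd against control on the log2 scale was 0.11 and 0.10 for Hspa8 (centring, length and GC), 0.04 and 0.06 for Bag3 (quantile, centring) and 0.21 for Hspe1 (centring). In Cd+Se against Se it was 0.02 and 0.01 for Hspa8 (centring, length and GC), 0.02, 0.03 and 0.01 for Hsp90aa1 (quantile, centring, length and GC) and 0.02, 0.01 and 0.00 for Hsph1 (in the same order). In Cd+Se against Cd it was -0.07, -0.12 and -0.06 for Hspa1a (in that order), -0.02 and -0.09 for Hsph1 (centring, length and GC) and 0.00 and -0.17 for Hspe1 (quantile, centring). Without each mouse in turn the range crossed 0 in Cd against control for Hspa1a (-0.02 to 0.26), Hsph1 (-0.08 to 0.27), Hspe1 (-0.13 to 0.07) and Hsf1 (-0.01 to 0.19). It did so in Cd+Se against Se for Hspa1a (-0.20 to 0.31), Hspa8 (-0.12 to 0.10), Hsp90aa1 (-0.16 to 0.16) and Hsph1 (-0.23 to 0.14), and in Cd+Se against Cd for Hspa1a (-0.15 to 0.32), Hspa1b (-0.03 to 0.41), Hsph1 (-0.06 to 0.33), Bag3 (-0.19 to 0.16) and Hspe1 (-0.06 to 0.12). In Se against control and in Cd+Se against control these ranges were taken only for Hspd1 and Hsp90aa1. The range crossed 0 in Se against control for Hspd1 (-0.08 to 0.03) and Hsp90aa1 (-0.01 to 0.24). In Cd+Se against control it crossed 0 for Hsp90aa1 (-0.01 to 0.24). The other members were not examined in these comparisons. No paired analysis was possible because the groups share no mouse numbers.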

Other observations

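The table lists 12 further genes, 11 of them pseudogenes, whose symbols carry those of Hspd1 or Hspe1, and none of them exceeded 1.69 TPM in a mouse. The genes of the chaperone lists with a mean under 1 TPM, 9 in all, were not tested. They include Hspa1l at 0.682 TPM and the lens crystallin gene Cryaa, which was listed at 0.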
